A study of Ovis aries with 62 samples.

Results

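MKI67 and 6 genes of mitosis (PLK1, CASC5, CENPE, TOP2A, NCAPG and TTK) were followed through the rumen wall transcriptomes of 62 Australian (AUS) sheep. The genes are 7 of the 16011 in the table, and all 7 belong to the cell cycle list of the study, which holds 43 measured genes. They were chosen by their co-expression, the correlation of their levels over these same sheep, in which MKI67 was joined to the mitotic genes less closely than the mitotic genes were to one another, so that co-expression and the departure of MKI67 are described below without a test. The gene ID of MKI67 is ENSOARG00000014562, and the other members were found by the IDs that the study pairs with their symbols. The libraries came from ventral rumen wall sampled through its full thickness, 1 per sheep. All animals were adult Merino ewes that received the same lucerne and oat chaff diet, and they differed by design only in the test period, or block, in which they were measured. Block 1 held 16 sheep, block 2 held 16, block 3 held 14 and block 4 held 16. The ewes had a small number of sires, which the labels do not give, so related animals were treated as independent. Because the samples hold epithelium, muscle and matrix together, fewer dividing cells and less RNA per dividing cell cannot be told apart.

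The rumen is lined by a stratified squamous epithelium in which cells divide in the basal layers, move up and cornify, while the smooth muscle beneath it renews slowly. MKI67 encodes Ki-67, a large nuclear protein that coats mitotic chromosomes and is widely used as a marker of cycling cells. PLK1 and TTK are kinases that drive mitosis and its spindle checkpoint, CASC5 (also named KNL1) and CENPE act at the kinetochore, where chromosomes meet the spindle, and TOP2A and NCAPG untangle and condense chromosomes. In dividing mammalian cells the transcripts of such genes are made mainly in the late part of the cell cycle, and they usually rise and fall together between tissues.

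MKI67 was 2.43-fold higher in block 1 than in the other blocks, while the 6 mitotic genes were at most 1.44-fold higher. Its level in block 1 ran between 5.78 (sheep oz166) and 8.11 log2 CPM (oz93) with a median of 7.47, and in blocks 2–4 between 4.63 (oz197) and 7.30 (oz70) with a median of 5.96. Log2 CPM puts the reads of each gene, scaled to library size, on a log2 axis, so a step of 1 is a doubling. Of the 16 sheep of block 1, 10 lay above the highest sheep of the other blocks and 15 above their median, although the groups overlapped. The block means were 7.23 ± 0.62, 6.07 ± 0.46, 5.86 ± 0.70 and 5.92 ± 0.38 log2 CPM in blocks 1–4 (SD, n = 16, 16, 14 and 16). Block 1 exceeded the mean of blocks 2, 3 and 4 by 1.28 ± 0.15 on the log2 scale (SE, limma, adjusted p = 3.5e-09 over 16011 genes). Ranked by this difference with its sign, from the largest rise down, MKI67 was 56th of the 16011 genes. Genes with larger falls in block 1 do not count in this rank. MKI67 was chosen with its departure in these same sheep known, so the adjusted p and the rank describe the gene and are not independent support. That its difference exceeded those of the mitotic genes was not tested, since this departure was part of the choice.

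**Figure D1:**
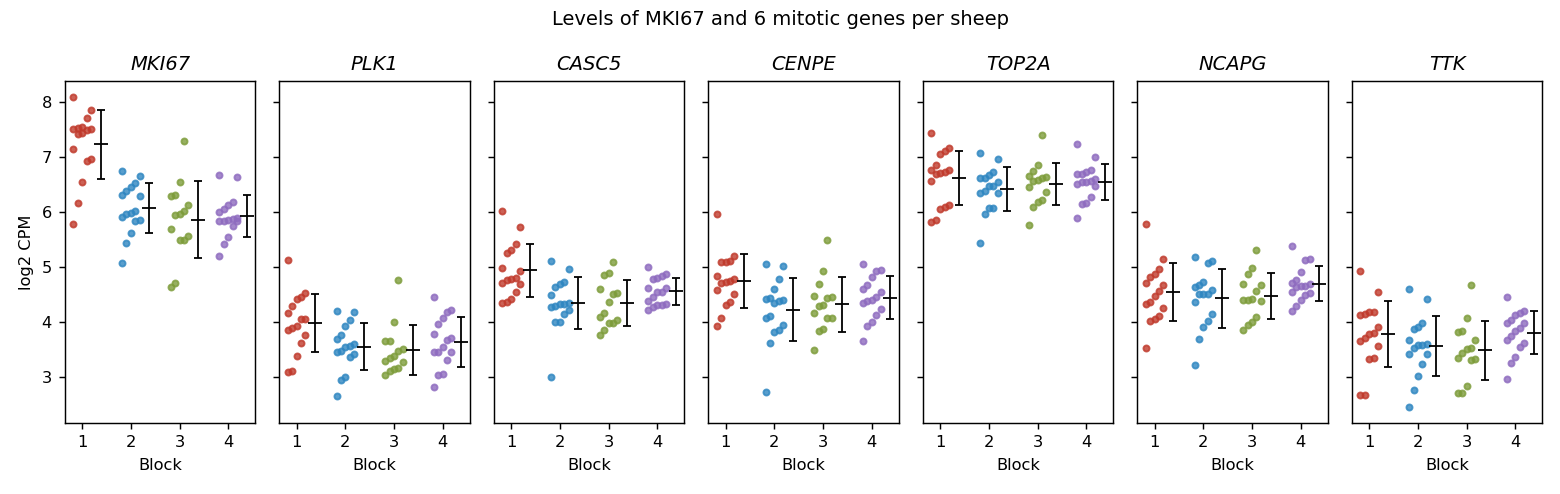
Level of each of the 7 genes (log2 CPM, vertical axis) in each sheep (points), by test block (horizontal axis), with the mean and SD of each block as a bar to the right of its points. MKI67 averaged 7.23 in block 1 and 6.07, 5.86 and 5.92 in blocks 2, 3 and 4, whereas the blocks of TOP2A, NCAPG and TTK lie at nearly the same height.

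The kinetochore genes were also higher in block 1, by smaller amounts. CASC5, the scaffold on which the checkpoint proteins assemble, ranged from 4.34 to 6.01 log2 CPM in block 1 (median 4.78) and from 2.99 to 5.11 in blocks 2–4 (median 4.38). Block 1 exceeded the other blocks by 0.53 ± 0.12 (adjusted p = 0.00035), and 5 of its 16 sheep lay above the highest of the others. CENPE, the kinesin motor that carries chromosomes to the spindle equator, ranged from 3.93 to 5.97 log2 CPM in block 1 (median 4.74) and from 2.71 to 5.50 in blocks 2–4 (median 4.38). Its difference was 0.42 ± 0.14 (adjusted p = 0.013), with 12 of 16 sheep of block 1 above the median of the others and 1 above their highest.

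Of the 2 kinases, PLK1 passed the test and TTK did not. PLK1, which controls entry into mitosis and spindle assembly, ranged from 3.09 to 5.13 log2 CPM in block 1 (median 3.98) and from 2.65 to 4.77 in blocks 2–4 (median 3.48). It was higher in block 1 by 0.43 ± 0.13 (adjusted p = 0.0099). TTK, the kinase that starts the spindle checkpoint, ranged from 2.66 to 4.92 log2 CPM in block 1 (median 3.79) and from 2.44 to 4.67 in blocks 2–4 (median 3.60), a difference of 0.17 ± 0.15 that did not pass (adjusted p = 0.39) but was 0.48 and passed with the muscle covariate. Whether the differences of PLK1 and TTK themselves differ was not tested.

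The genes of chromosome structure did not pass the test, although both passed once the muscle list mean was a covariate (TOP2A 0.44, NCAPG 0.35). TOP2A, the topoisomerase that separates entangled sister DNA, ranged from 5.83 to 7.45 log2 CPM in block 1 (median 6.72) and from 5.43 to 7.40 in blocks 2–4 (median 6.55), a difference of 0.12 ± 0.11 (adjusted p = 0.44). NCAPG, a subunit of condensin, ranged from 3.51 to 5.78 log2 CPM in block 1 (median 4.52) and from 3.21 to 5.37 in blocks 2–4 (median 4.55), a difference of 0.01 ± 0.13 (adjusted p = 0.96). Sheep oz40 of block 1 was the highest of the 62 for all 6 mitotic genes, and oz70 was the highest of block 3 for all 7 genes. Block 2 sheep oz244 was the lowest of the 62 for all 6 mitotic genes but not for MKI67, whose lowest level was that of oz197.

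In all, 4 of the 7 genes were higher in block 1 and none was lower, against 17.2% of all genes that were higher and 19.4% that were lower (36.6% in either direction). The 6 mitotic genes had a median difference of 0.30 and all genes one of -0.01. Each of the 4 calls remained when any 1 of the 62 sheep was left out. The difference of MKI67 then lay between 1.22 and 1.38, and the largest adjusted p of CENPE was 0.040 and that of PLK1 0.030, both without oz40. The test over all 4 blocks together passed for MKI67 (F = 23.7, adjusted p = 7.9e-08) and CASC5 (F = 7.43, adjusted p = 0.0023), against 26.5% of all genes, and not for CENPE (adjusted p = 0.061), PLK1 (adjusted p = 0.066) or the other 3 genes (adjusted p of 0.38 or more). Blocks explained 53.1% of the variance of MKI67 over sheep, 26.7% of that of CASC5, 15.1% for CENPE, 15.0% for PLK1, and 3.03% to 6.72% for TOP2A, NCAPG and TTK.

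No member passed a test that set block 2, 3 or 4 apart. Set against the mean of the other 3 blocks, 0 of 7 genes passed in limma for block 2, block 3 or block 4, where 0%, 0.144% and 1.94% of all genes did. At an unadjusted p under 0.05 the counts were 2, 2 and 1 of 7, against 7.76%, 13.8% and 18.3% of all genes. MKI67 came nearest in block 4, at -0.47 ± 0.15 (adjusted p = 0.088), and in block 3, at -0.54 ± 0.16 (adjusted p = 0.10), and both contrasts have the high block 1 among their reference blocks.

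Of the 36 other genes of the cell cycle list, 3 were higher in block 1 and 0 were lower, with a median difference of 0.04, against 17.2% of all genes higher and 19.4% lower. With the mean of the muscle list as a covariate, 19 of the 36 were higher and 0 lower, with a median of 0.31, against 7.53% of all genes higher and 7.27% lower. Among the 3 were ASPM, a spindle pole protein (0.40 ± 0.14, adjusted p = 0.019), and KIF20A, a kinesin of the central spindle (0.34 ± 0.13, adjusted p = 0.035). These 2 calls were less firm than those of the members. That of ASPM was lost without oz40, and that of KIF20A without any 1 of 6 block 1 sheep, oz10, oz40, oz93, oz109, oz184 and oz196 (adjusted p up to 0.056 and 0.092).

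By role, the checkpoint kinases BUB1 (0.21 ± 0.12) and BUB1B (0.08 ± 0.13) did not pass without the covariate. Of 9 spindle and cytokinesis genes 2 were higher, a share near the 17.2% of all genes. The condensin subunit SMC2 (-0.02 ± 0.11) and the replication and repair genes RRM2 (0.04 ± 0.12) and FANCD2 (0.12 ± 0.13) did not pass without the covariate. Nor did any of the 13 histones of the list, which are made in S phase. The histones ranged from -0.12 to 0.08 with a median of 0.01, and 5 of the 13 passed, all higher, with the muscle covariate (median 0.29). The 8 list genes without a symbol ranged from -0.11 to 0.11, and none passed.

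**Figure D2:**
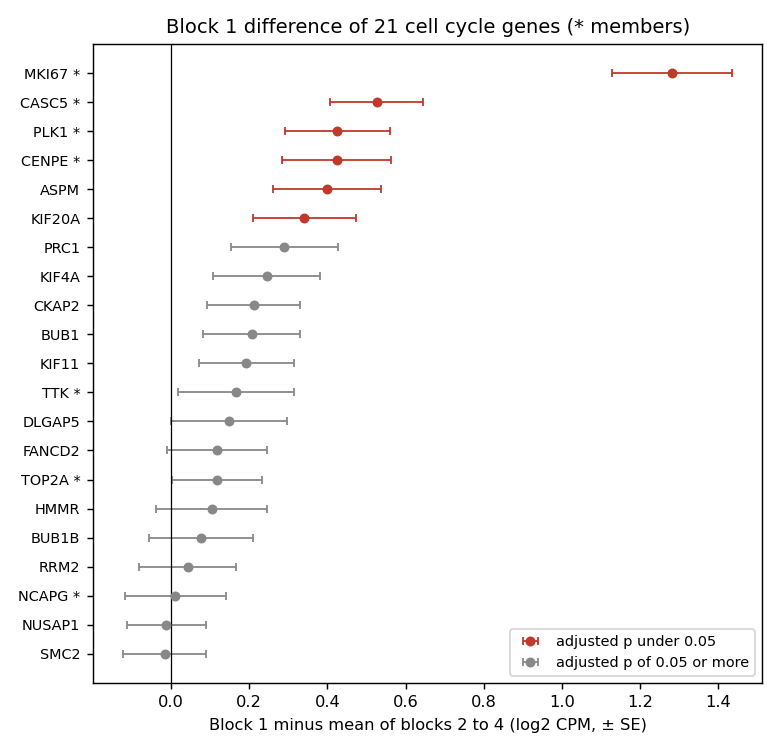
Block 1 minus the mean of blocks 2, 3 and 4 (log2 CPM, horizontal axis, bars are SE) for the 7 members, marked with asterisks, and 14 other named genes of the cell cycle list, in order of size; red points passed an adjusted p of 0.05 and gray points did not. MKI67 stands at 1.28, CASC5 at 0.53, and the other genes lie between -0.02 and 0.43.

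Block 1 also differed in the levels of muscle, epithelial and interferon genes. Whether its samples differed in tissue make-up was not tested. All 6 smooth muscle markers (MYH11, CNN1, LMOD1, TAGLN, DES and SYNM) were higher in block 1, and their summed level ran from 11574 to 63560 CPM in block 1 (median 29930) and from 8867 to 54184 CPM in blocks 2–4 (median 22566). Of the 647 genes of the muscle list of the study, 507 were higher and 1 lower. Among 4 matrix markers (COL1A1, COL1A2, COL3A1 and FN1), 2 were higher and 0 lower, with a summed level of 2134 to 6824 CPM in block 1 and 1575 to 10628 CPM in blocks 2–4. Of 4 markers of the cornifying epithelium (KRT78, KRT13, TGM1 and LIPN) 3 were lower, with a summed level of 1125 to 12189 CPM in block 1 and 4039 to 10664 CPM in blocks 2–4, and 37 of the 43 genes of the epithelial differentiation list were lower. Of 16 type I interferon genes, 13 were lower. No muscle, matrix or epithelial marker was at 0 reads in any library. The study drew its lists from these samples, so their directions are not independent evidence.

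With the mean of the muscle list as a covariate, the block 1 difference of MKI67 was 1.31 and passed (adjusted p = 8.1e-07), close to the 1.28 without it. The mitotic genes had larger differences than without the covariate. TTK (0.48 ± 0.15, adjusted p = 0.024), TOP2A (0.44 ± 0.10, adjusted p = 0.0027) and NCAPG (0.35 ± 0.12, adjusted p = 0.047) now passed, so that all 7 genes were higher in block 1, with CASC5 at 0.66, CENPE at 0.64 and PLK1 at 0.57. The libraries of block 1 were also the shallowest, with a median of 6812020 assigned reads, against 8215480, 8694507 and 8588580 in blocks 2–4. With log2 assigned reads as a covariate, which was chosen after the depths were seen, MKI67 differed by 1.24 (adjusted p = 2.9e-07). The differences of the 6 mitotic genes were larger than without it, among them 0.32 for TTK (adjusted p = 0.12) and 0.11 for NCAPG (adjusted p = 0.60), and the same 4 genes passed. Within block 1 the level of MKI67 had r = -0.46 with log2 assigned reads over 16 sheep, and r lay between -0.16 and 0.26 in the other blocks. The part of depth in this was not tested.

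The 6 mitotic genes varied together over sheep. Their 15 pairs had r between 0.61 and 0.85 over 62 sheep (median 0.76), the closest being CENPE and TOP2A, TOP2A and NCAPG, and NCAPG and TTK, each at 0.85. MKI67 had r of 0.67 with PLK1 and with CASC5, 0.66 with CENPE, 0.42 with TOP2A, 0.39 with TTK and 0.28 with NCAPG (median 0.54). The 3 genes closest to MKI67 are thus those that were higher in block 1 along with it. All libraries share 1 processing, and r is given as a description because co-expression chose the genes.

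With the block differences taken out, r of MKI67 was lower with PLK1, CASC5 and CENPE and higher with TOP2A, TTK and NCAPG, and its median was 0.53. With block means removed, r of MKI67 was 0.64 with PLK1, 0.65 with CENPE, 0.56 with CASC5, 0.49 with TOP2A, 0.45 with TTK and 0.43 with NCAPG, while the median among the mitotic genes was 0.74. Within single blocks, the median r of MKI67 with the mitotic genes was 0.43, 0.58, 0.66 and 0.52 in blocks 1–4, and the median among the mitotic genes was 0.76, 0.79, 0.78 and 0.68. In each block the median with MKI67 was thus below the median among the mitotic genes. In block 1 MKI67 followed CASC5 (r = 0.73) and CENPE (0.64) and had r of only 0.22 with NCAPG and 0.28 with TOP2A, whereas in block 3 it had 0.67 with NCAPG and 0.69 with TOP2A. In residuals on the muscle list mean over 62 sheep, with blocks not removed, the medians were closer. They were 0.70 for MKI67 with the mitotic genes and 0.78 among the mitotic genes.

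**Figure D3:**
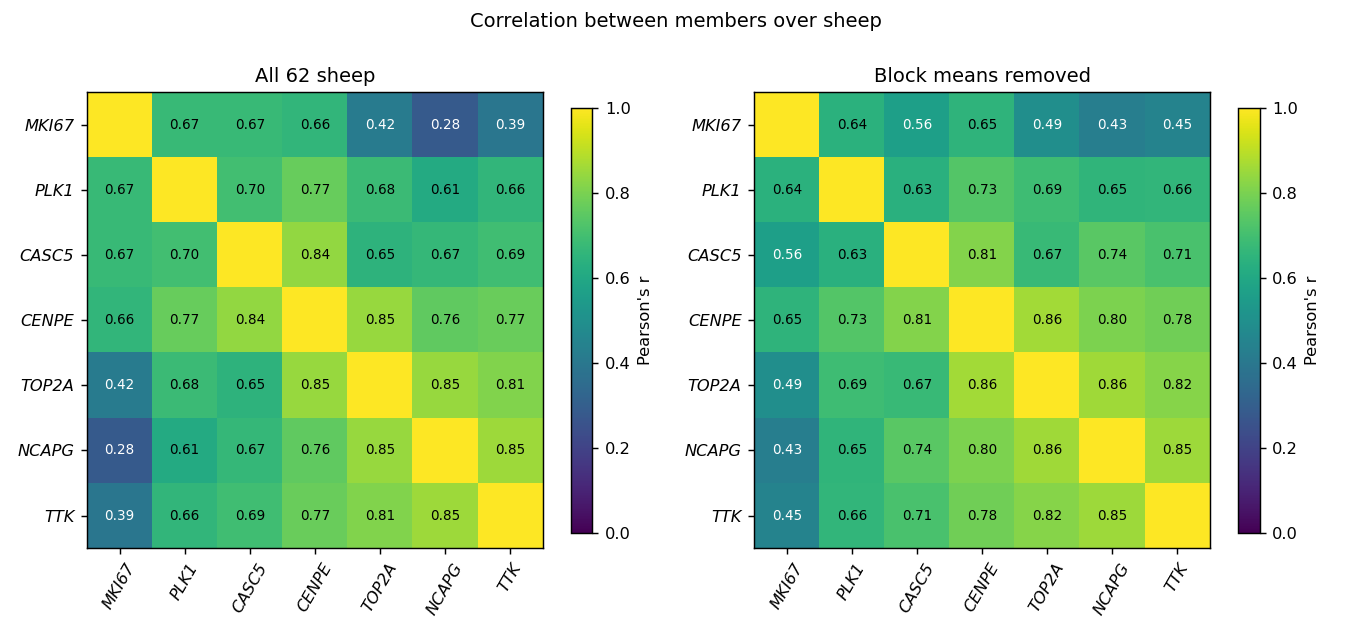
Pearson's r between the 7 genes over the 62 sheep, from the levels as they are (left) and after the mean of each block was subtracted (right); both axes list the genes and the color runs from 0 to 1. The row of MKI67 runs from 0.28 to 0.67 on the left and from 0.43 to 0.65 on the right, and its values with TOP2A, NCAPG and TTK are below those of every mitotic pair in both panels.

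Where MKI67 departs was read from its residual after a least squares fit on the mean of the 6 mitotic genes in the same sheep. This residual averaged 0.73 ± 0.57, -0.07 ± 0.39, -0.28 ± 0.49 and -0.42 ± 0.31 log2 units in blocks 1–4 (SD), which put block 1 0.98 above blocks 2–4. In block 1 it ran from -0.51 (oz166) to 1.47 (oz171) with a median of 0.91, and in blocks 2–4 from -1.17 (oz197) to 0.57 (oz244) with a median of -0.24. The 10 highest residuals all belonged to block 1, and 15 of its 16 sheep lay above 0, against 13 of 46 sheep in blocks 2–4. The 6 other sheep of block 1 overlapped with the other blocks. Over all sheep, MKI67 and the mitotic mean had r = 0.59 and rho = 0.55, and r = 0.54 without the 2 sheep farthest from the median of that mean.

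The same residual was taken for each mitotic gene on the mean of the 5 others. Block 1 then lay 0.32 above blocks 2–4 for CASC5, 0.21 for PLK1 and 0.14 for CENPE, and the differences were -0.13 for TOP2A, -0.16 for TTK and -0.28 for NCAPG. These residuals restate the level differences relative to one another, and in the levels all 6 differences were above 0.

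**Figure D4:**
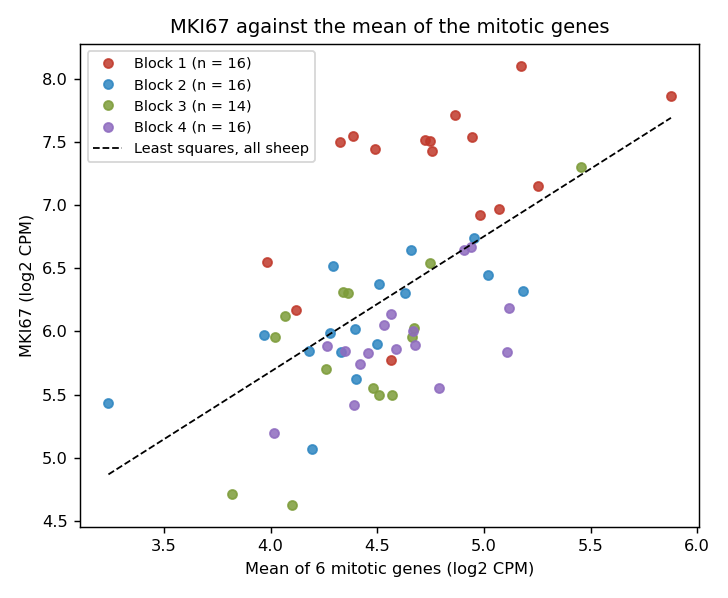
Level of MKI67 (log2 CPM, vertical axis) against the mean of the 6 mitotic genes (log2 CPM, horizontal axis) in each of 62 sheep, colored by block, with the least squares line over all sheep. Most block 1 sheep lie above the line, by up to 1.47, while sheep of blocks 2–4 lie at most 0.57 above it.

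The genes nearest to MKI67 lay outside the cell cycle list of the study. Its 10 nearest genes of the whole table had r from 0.77 to 0.89 over 62 sheep, and 0 of them belonged to the cell cycle list. Among them was SRCAP, a chromatin remodeling ATPase that is in the muscle list (r = 0.77). The closest gene was ENSOARG00000000627 (r = 0.89), which has no symbol here. Only 2 of the 10 nearest genes have a symbol, so whether the others act in the cell cycle is not known here. All 10 were higher in block 1, by 0.59 to 1.19, against 17.2% of all genes. They were picked by r with MKI67 over all sheep, and MKI67 was itself high in block 1, so this direction is no separate result. The nearest gene of the cell cycle list was KIF20A, in place 110 (r = 0.70). For the mitotic genes, 5 (CASC5) to 9 (NCAPG) of the 10 nearest genes belonged to the list, and the closest partners there were KIF20A for PLK1, CENPE for CASC5, KIF11, a spindle motor, for TOP2A (r = 0.90) and TTK (r = 0.87), and the histone HIST2H2BF for NCAPG (r = 0.89). With block means removed, KIF20A was second among the genes nearest to MKI67 (r = 0.73) and CENPE ninth (r = 0.65), and ENSOARG00000000627 was still first (r = 0.79).

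The slopes of the members on the level of the muscle genes in the sample were also fitted. Per SD of the muscle list mean, NCAPG fell by 0.23 ± 0.05 (SE, adjusted p = 9.1e-05), TOP2A by 0.19 ± 0.04 (adjusted p = 0.00025) and TTK by 0.18 ± 0.06 (adjusted p = 0.012), while MKI67 rose by 0.26 ± 0.09 (adjusted p = 0.010). PLK1, CASC5 and CENPE did not pass. This is 4 of 7 genes, a share close to the 54.9% of all genes that passed (25.9% higher and 29% lower with muscle), and the other 36 genes of the cell cycle list had 32 lower and 0 higher. With block as a term, the slope of MKI67 was -0.02 ± 0.08 (adjusted p = 0.84) and CENPE passed as well (-0.19 ± 0.07, adjusted p = 0.016), so the rise of MKI67 with the muscle genes over all sheep was not seen with blocks held apart. The slopes on the muscle list mean were not shown to differ between block 1 and blocks 2–4 for any of the 7 genes (limma, 0 of 7 at an adjusted p under 0.05, against 1.37% of all genes, and 0 of 7 at an unadjusted p under 0.05, against 14.2%).

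The relation of MKI67 with the epithelial differentiation genes differed between block 1 and the other blocks. The epithelial differentiation list holds 43 genes of the upper epithelium, and its mean ran from 5.70 to 8.08 log2 CPM in block 1 (median 7.23) and from 7.13 to 8.23 in blocks 2–4 (median 7.86). In a fit with block terms, chosen after the data were seen, the slope of MKI67 per SD of this mean over the 62 sheep was -0.17 ± 0.08 in block 1 (adjusted p = 0.14) and 0.56 ± 0.14 in blocks 2–4 (adjusted p = 0.0064). The difference of the 2 slopes was -0.73 ± 0.16 (adjusted p = 0.0095), and between -0.77 and -0.63 when any 1 sheep of block 1 was left out (adjusted p up to 0.019). The range of the list mean was wider in block 1 than in the other blocks, and its part in the difference was not tested. MKI67 was chosen with its departure in these same sheep known, so this adjusted p is not independent support. By block, r of MKI67 with the list mean was -0.39, 0.54, 0.53 and 0.62 in blocks 1–4.

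Among the 6 mitotic genes, the difference of slopes passed for none. It ranged from -0.40 (CENPE, adjusted p = 0.21) to -0.13 (TTK), so that 1 of 7 genes passed, against 1.34% of all genes. At an unadjusted p under 0.05 the count was 2 of 7, against 14.1% of all genes. All 6 differences were thus below 0, as was that of MKI67, and whether that of MKI67 exceeded them was not tested. In blocks 2–4, CENPE, TOP2A and NCAPG rose with the differentiation list along with MKI67, 4 of 7 genes against 11.4% of all genes, with slopes of 0.45, 0.40 and 0.37. In block 1, TOP2A rose (0.17 ± 0.06, adjusted p = 0.034) and no other member passed, 1 of 7 against 21.2% of all genes. The mean of the mitotic genes had r of 0.34, 0.62, 0.41 and 0.17 with the list mean in blocks 1–4.

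**Figure D5:**
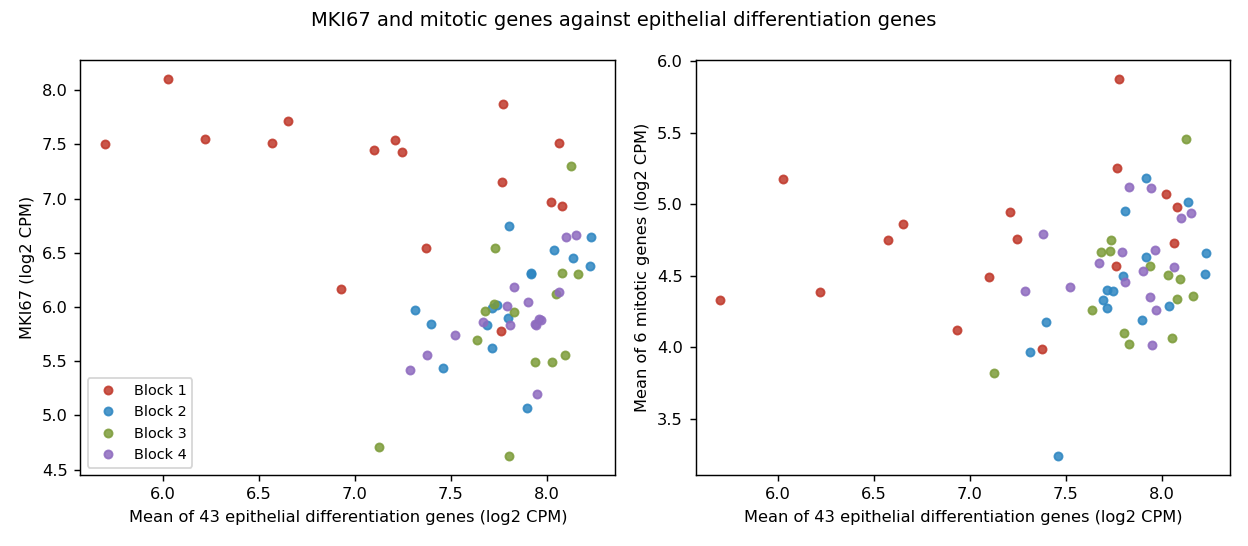
Level of MKI67 (left) and the mean of the 6 mitotic genes (right), both in log2 CPM on the vertical axis, against the mean of the 43 epithelial differentiation genes (log2 CPM, horizontal axis) in each sheep, colored by block. Block 1 spreads down to a differentiation mean of 5.70, and the slope of MKI67 per SD of that mean was -0.17 in block 1 and 0.56 in blocks 2–4.

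No member passed a test on the methane traits, feed intake or body weight. In limma, 0 of 7 genes passed for CH4 production (g/d), CH4 yield (g per kg of dry matter intake, DMI), DMI or live weight, against 0.0125%, 0%, 0% and 0.0187% of all genes. At an unadjusted p under 0.05 the counts were 0, 1, 0 and 0 of 7, against 9.05%, 9.5%, 11.9% and 8.23% of all genes. Per SD of CH4 production the slopes of the 7 genes lay between -0.06 and 0.04. The 1 gene was MKI67 with CH4 yield, at -0.30 ± 0.09 (adjusted p = 0.33) over 61 sheep. That slope was -0.16 ± 0.07 with block as a term (adjusted p = 0.999), and 0.01 when sheep oz151, left out of yield and DMI for an intake recorded far below that of the others, was kept. For DMI the slope of MKI67 was 0.19 ± 0.10 (adjusted p = 0.43), and 0.01 with block as a term.

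Counting error was small beside the spread between sheep. MKI67 rested on 386 to 1979 reads per library in block 1 and on 219 to 1742 reads in blocks 2–4, and TOP2A on 305 to 1868 reads over all sheep. At the median of 579 reads, counting alone gives MKI67 an SD of 0.06 on the log2 scale, against 0.38 to 0.70 between sheep of 1 block. TTK and PLK1 were the least deeply read, at medians of 98.5 and 94.5 reads (lowest 38 and 43), which gives counting SDs of 0.15 each, against 0.39 to 0.60 and 0.43 to 0.54 between sheep of 1 block. Reads without molecular identifiers are not independent molecules, so these SDs cover counting error only.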

How the data were processed

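Total RNA of ventral rumen wall from 62 sheep was sequenced by the authors as stranded, ribosomal RNA depleted, paired-end libraries. The authors aligned reads to gene models of Ensembl with TopHat and Bowtie2 and counted them with HTSeq; edgeR and limma are also named per the labels. The authors deposited log2 CPM made with voom (offset of 0.5 reads), which cover 16011 genes and were used without change. The reads behind them were recovered as whole numbers for 100% of values (tolerance 0.01 reads) and sum to 4208032 to 12130080 assigned reads per library (median 7923973). Symbols came from the tables of the study and cover 1224 genes. No sequences or coordinates were used here.

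Sheep were grouped by the block in their labels. With limma 3.58.1 (R 4.3.3) and a variance trend in its empirical Bayes step, models were fitted for block contrasts, F tests and slopes per SD over all 16011 genes, with Benjamini-Hochberg adjustment and a threshold of 0.05. It takes 1 variance per gene for all blocks. The p-values set each effect against the spread between sheep that the fit leaves. Each block was 1 test period, so anything its sheep or samples shared cannot be told apart from the block. The fits were also tried on simulated independent counts with known changes, which does not cover kinship between sheep or shifts shared by many genes. Correlations and residuals used Python 3.11.15, numpy 2.4.6, scipy 1.17.1 and pandas 2.3.3, and plots matplotlib 3.10.9. CH4 yield is CH4 production over DMI, and oz151 was left out of yield and DMI.

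Genes named are the 7 members, the other genes of the cell cycle list that have a symbol, grouped by role, and the 10 genes nearest to MKI67 by r. Some genes that this rule names are not reported here. The members and lists were chosen with earlier results of these data known. Alternatives were a filter at 3 CPM in all libraries, an offset of 2 reads, upper quartile scaling, voom weights, the muscle list mean or block as terms, blocks 2–4 only, and oz151 left out or kept. Assigned reads as a covariate, leaving out each sheep in turn, and the slopes on the differentiation list with their difference were added after the data were seen.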

Additional observations from a re-analysis of the deposited data

Results flagged for a closer look

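The slope of MKI67 on the mean of the epithelial differentiation list differed between block 1 and blocks 2–4. The interaction term of the limma fit was -0.73 ± 0.16 log2 units per SD of the list mean (SE, adjusted p = 0.0095), with a slope of -0.17 in block 1 and 0.56 in blocks 2–4. The list mean spread more widely in block 1, and the part of that spread in the difference was not tested. The differences of all the mitotic genes were also below 0, and none passed. MKI67 was chosen with its departure in these same sheep known, so the result describes the gene and is not independent support.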

How the results depend on the processing

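The block 1 difference of MKI67 kept its direction and passed in all 7 alternatives (1.24 to 1.31), as did those of CASC5, PLK1 and CENPE. With the muscle list mean as a covariate, 7 members passed for block 1, against 4, and 5 passed the F test, against 2, while the genes passing among all fell to 2369, against 5860, and to 1428, against 4242. In the F test, CENPE passed with the 3 CPM filter (adjusted p = 0.049) and PLK1 without oz151 (0.0497) and with assigned reads as a covariate (0.030). Leaving out any 1 sheep gave 4 members each time and 5171 to 6376 of all genes for block 1. In all genes, the counts for block 3 were 46 (3 CPM filter), 114 (voom weights), 120 (muscle covariate), 47 (without oz151) and 1 (assigned reads), against 23, and those for block 4 were 199 (voom weights) and 74 (muscle covariate), against 310. Over all genes, 0 to 41 passed for CH4 production, against 2, and 0 to 78 for live weight, against 3. For CH4 yield 2 passed with oz151 and for DMI 3 with the muscle covariate, against 0 each.

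Slopes of MKI67 that turned round were those on CH4 production (-0.069 with block as a term and -0.0015 in blocks 2–4, against 0.04), on CH4 yield with oz151 (0.0061, against -0.30), on live weight (0.017 with block as a term and 0.054 in blocks 2–4, against -0.01) and on the muscle mean with block as a term (-0.023, against 0.26). On the muscle mean, that of CASC5 was -0.12 with block as a term, against 0.02, and that of PLK1 0.0066 with upper quartile scaling, against -0.01; neither passed in any fit. On the differentiation list in block 1, 0 members passed with upper quartile scaling and 2 with the 3 CPM filter, against 1. The median r of MKI67 with the mitotic genes was 0.70 in residuals on the muscle mean, against 0.54. In the same residuals the median among the mitotic genes was 0.78, against 0.76, and as rho that median was 0.68. The other alternatives moved these medians and the departure of MKI67 by less than their spread. The causes were not tested. No paired analysis was possible because each sheep gave 1 library and belonged to 1 block. Counting error was small beside the spread between sheep, and TTK and PLK1 were the least deeply read members. The part of the lower depth of block 1 in the differences was not tested.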
